A study of Mus musculus with 6 samples.

Results

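The genes described here encode the nuclear subunits of the mitochondrial respiratory chain and of ATP synthase, as measured in mouse heart ventricles. Members were chosen by gene symbol, in a set proposed with earlier results of these data known. Symbols of the Nduf subunit series, Sdha to Sdhd, the Uqcr series, Cox4 to Cox8 and the Atp5 series were taken from the deposited table. This gave 84 of its 23284 rows. Of these, 36 fall to complex I, 4 to complex II, 8 to complex III, 18 to complex IV and 17 to complex V. The remaining row, Cox4nb, is matched by its letters only, since it is the former name of Emc8, a subunit of a protein complex of the endoplasmic reticulum. It counts among the 84 and in no complex. Ndufa4 is kept under complex I by its name, although the protein is known to associate with complex IV.

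The libraries came from ventricles of chimeric C57BL/6 embryos at embryonic day 9.5, with 3 WT and 3 KD samples. Both groups were grown by tetraploid complementation from C57BL/6 J ES cells, so that the embryo proper derives from the injected cells. WT embryos came from wild type ES cells. KD embryos, of the genotype Tbx5ua -/-, came from clonal ES cells in which tandem polyadenylation signals had been inserted into both alleles of Tbx5ua, the lncRNA divergent to Tbx5, to end its transcription early. The labels do not say which clone each KD sample came from. The table holds 1 FPKM value for each group (fragments per kilobase of transcript, scaled to the mapped fragments of the library) and no value for single embryos. Every ratio below is therefore a comparison of 2 group values with no replicate check, no SD and no p-value, and the depth of the libraries is unknown. A ratio was taken as log2((KD + 1)/(WT + 1)), and a gene was said to lie past a fold when the ratio reached it. This understates the change of low genes, the more so the lower they are. For Cox8b, at 10.2 FPKM in WT, the fold was 2.77 with 1 added and 2.94 without. For Cox7b2, below 1 FPKM in both groups, it was 1.13 and 1.69. Of the 84 rows, 82 had at least 1 FPKM in either group. Cox7b2 (0.228 FPKM in WT and 0.384 in KD) did not, and Cox8c was listed at 0 in both groups. Both are known as testis forms.

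The respiratory chain passes electrons from NADH and succinate to oxygen, and pumps protons out of the mitochondrial matrix. Complexes I and II hand electrons to ubiquinone, complex III passes them on to cytochrome c, and complex IV reduces oxygen to water. ATP synthase, also called complex V, lets the protons return and makes ATP. The adult heart depends on this pathway more than most tissues do, whereas the early embryonic heart relies largely on glycolysis and its mitochondria mature over the days that follow. Several subunits of complex IV exist as a widespread form and as a form used in heart and skeletal muscle, and the exchange of the former for the latter accompanies muscle maturation.

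The targeted transcript Tbx5ua was not analysed here, so the label of the KD group was not checked on it. Its divergent neighbour Tbx5 had 17.2 FPKM in WT and 15.7 in KD (log2 ratio -0.13). The labelled tissue was checked on marker genes. All 10 cardiomyocyte markers were abundant, the lowest being Nkx2-5 in WT with 224 FPKM and Myh6 in KD with 239 FPKM, and their summed level was 37124 FPKM in WT and 38902 in KD. In these bulk libraries fewer cells of a type and less RNA per cell cannot be told apart. Of the epicardial list, 6 of 7 genes reached 1 FPKM and 6 of 6 were past 1.2-fold higher in KD, with a summed level of 47.3 FPKM in WT and 96.8 in KD. Among them Aldh1a2 (0.872 FPKM in WT and 1.74 in KD) reached 1 FPKM through its KD value alone, so the filter favoured its place in this count. Of the erythroid list, 7 of 8 genes were found and 4 of 7 were past 1.2-fold higher, with a summed level of 11764 FPKM in WT and 11931 in KD. Of 8 endocardial genes, 1 was past 1.2-fold higher, a share of 12.5%. Over all genes, 12.2% were past 1.2-fold higher. Macrophage markers summed to 0.523 FPKM in WT and 0.271 in KD, and neural crest and pharyngeal markers to 0.115 and 0.141 FPKM, with Foxd3 at 0 in both. The part of these cells in the results below was not tested.

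The subunit genes were among the most abundant transcripts of the ventricle. Together they held 8.0% of the summed FPKM in WT and 8.34% in KD. The median member had 735 FPKM in WT and 779 in KD, against a median of 9.62 FPKM in WT over the 11606 genes with at least 1 FPKM in either group. Their levels in KD stayed close to those in WT. The median ratio of the 82 members was 0.08 on the log2 scale, with quartiles of 0.00 and 0.15. For all 11606 genes the median ratio was 0.00 and the quartiles were -0.13 and 0.14. KD was above WT in 63 members and below it in 19. The share above WT was 76.8% of the members, 50.9% of all genes and 54.5% of genes at 100 FPKM or more in either group. The latter 2 shares are also the background for the splits given below by complex and by list. The split of the members became 52 to 30, with a median of 0.036, when the trend of the ratio with expression level was subtracted. It became 48 to 34, with a median of 0.016, when the trend of the ratio with transcript length was subtracted.

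Few members moved by a sizeable fold. Past 1.2-fold, 3 members were higher in KD (3 of 82, against a background of 12.2% of all genes) and 0 were lower (background 9.69%). Past 1.5-fold, 1 member was higher (background 2.2%) and 0 were lower (background 1.46%). Most of the members are abundant, and abundant genes varied less between the groups. Among the 1219 genes at 100 FPKM or more in either group, 4.92% were past 1.2-fold higher and 3.86% lower, and of the 75 members at that level 1 was higher and 0 were lower. At the smaller fold of 1.1, 24 of 82 members were higher, a share of 29.3% beside a background of 25.5%, and 1 was lower, a share of 1.22% beside a background of 23.9%. These backgrounds are over all genes. The shares among genes at 100 FPKM or more were not computed at this fold, so the members were not set against genes of a like level. Of the 24, 10 belong to complex I, 2 to complex III, 8 to complex IV and 4 to complex V. The 3 members past 1.2-fold, Cox8b, Cox4i2 and Cox6a2, all belong to complex IV, and all are the tissue-restricted form of a subunit with a widespread partner.

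**Figure D1:**
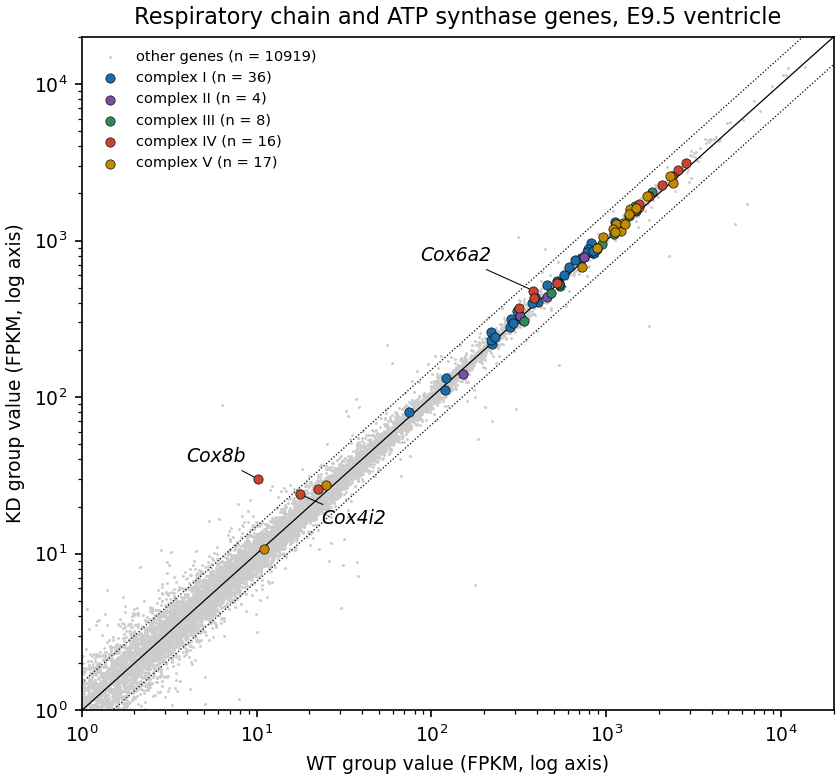
Group values in WT (x axis) and KD (y axis) in FPKM on log axes, for members coloured by complex and for other genes in grey. The solid line marks equal values and the dotted lines a 1.5-fold difference. Most members sit near the solid line at the upper end of both axes, while Cox8b, at 10.2 FPKM in WT and 30.0 in KD, lies above the upper dotted line.

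Cox8b stood apart from every other member. It encodes the heart and muscle form of subunit VIII, the smallest class of complex IV subunits, and lies on chromosome 7 from 140898942 to 140900446 (mm10), with 2 exons in its principal transcript of 360 bases. Its level was 10.2 FPKM in WT and 30.0 in KD, a log2 ratio of 1.47. By ratio it ranked 37 of the 11606 genes with at least 1 FPKM in either group. Among the 5927 genes with at least 10 FPKM in either group, a bound that Cox8b just reaches in WT, 28 had a higher ratio. Of these, 27 were rows for microRNAs or small nucleolar RNAs, and 24 of the 27 were listed at 0 in WT. The remaining one was Ndufa4l2, a gene related to Ndufa4 and known to respond to low oxygen, with 2.83 FPKM in WT and 10.5 in KD and a log2 ratio of 1.59. It passed that bound through its KD value alone. Ndufa4l2 is not a member by symbol, and its row overlaps that of Shmt2. The row of Cox8b overlaps no other gene of the table. With the trend in transcript length subtracted, the ratio of Cox8b was 1.33 and that of Ndufa4l2 was 1.51.

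The partner gene Cox8a, the widespread form, was the most abundant member, with 2862 FPKM in WT and 3109 in KD (log2 ratio 0.12). Cox8b thus made up 0.355% of the summed subunit VIII transcripts in WT and 0.955% in KD. The bases before the start of both genes are shown because the pair encodes the same subunit and only Cox8b was past 1.2-fold. Beside them stand the promoters of Cox6a1 and Atp5l, the members whose 250 bases hold matches to both NRF1 and ETS letters, which are typical of promoters of respiratory genes. The sequences are those of RefSeq on GRCm38.p6, on the strand of the gene, and all 4 genes lie on the minus strand. Cox8b is chr7:140900447-140900696, Cox8a is chr19:7217617-7217866, Cox6a1 is chr5:115348959-115349208 and Atp5l is chr9:44920743-44920992. Capitals mark matches to any of the 5 motifs described further on.
Cox8b: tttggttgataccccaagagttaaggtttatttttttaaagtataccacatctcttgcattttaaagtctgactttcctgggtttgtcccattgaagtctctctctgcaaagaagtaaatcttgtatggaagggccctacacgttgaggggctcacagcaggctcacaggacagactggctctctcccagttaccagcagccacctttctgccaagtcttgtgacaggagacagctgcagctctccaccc
Cox8a: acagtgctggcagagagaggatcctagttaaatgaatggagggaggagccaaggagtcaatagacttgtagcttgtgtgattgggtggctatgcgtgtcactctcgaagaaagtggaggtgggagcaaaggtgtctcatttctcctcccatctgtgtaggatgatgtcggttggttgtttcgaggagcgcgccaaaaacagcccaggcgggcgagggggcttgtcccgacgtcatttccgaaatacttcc
Cox6a1: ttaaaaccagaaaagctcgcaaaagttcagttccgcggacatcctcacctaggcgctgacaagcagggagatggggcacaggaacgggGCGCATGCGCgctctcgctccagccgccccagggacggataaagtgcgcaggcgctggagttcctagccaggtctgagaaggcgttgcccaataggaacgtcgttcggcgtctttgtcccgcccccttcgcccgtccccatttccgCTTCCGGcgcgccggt
Atp5l: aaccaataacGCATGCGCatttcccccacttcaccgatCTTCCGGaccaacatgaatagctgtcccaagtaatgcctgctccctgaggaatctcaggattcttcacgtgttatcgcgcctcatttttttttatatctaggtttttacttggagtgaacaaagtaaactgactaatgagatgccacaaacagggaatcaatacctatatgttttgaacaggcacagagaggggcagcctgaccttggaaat
Counted back from the start, the matches begin at -162 and end with the one at -16 in Cox6a1, and stand at -240 and -212 in Atp5l. In Cox6a1 the letters for NRF1 are read on both strands at overlapping places. The 250 bases of Cox8b and of Cox8a hold 0 matches, and their GC content is 47.2% and 52.8%, respectively, against 62.8% for Cox6a1 and 44.0% for Atp5l. Over a window that adds the 50 bases after the start, not shown, Cox8a has ETS letters and Cox8b holds 0 matches. The windows of other members, named further on, hold no match either.

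The other subunits of complex IV with paired forms were compared in the same way. Cox4i2, the form of subunit IV known from lung and from responses to low oxygen, is on chromosome 2 from 152754173 to 152765037. It had 17.8 FPKM in WT and 23.9 in KD (log2 ratio 0.41), while the widespread Cox4i1 had 2081 and 2247 FPKM (0.11). Cox6a2, the heart and muscle form of subunit VIa, had 381 FPKM in WT and 479 in KD (0.33), and Cox6a1 had 1542 and 1702 FPKM (0.14). The row of Cox6a2, on chromosome 7 from 128173946 to 128206366, overlaps those of Itgad and 4931431B13Rik, both of which were below 0.2 FPKM in both groups. With the trend in transcript length subtracted its ratio was 0.24, short of 1.2-fold (0.26), and without members whose rows overlap another it leaves the count past 1.2-fold. Cox7a1, the heart and muscle form of subunit VIIa, had 384 FPKM in WT and 427 in KD (0.15), and Cox7a2 had 1164 and 1204 FPKM (0.05).

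The widespread form was the more abundant in every pair and in both groups, yet the muscle forms of subunits VIa and VIIa were already abundant in WT. Cox6a2 was 19.8% of the summed subunit VIa transcripts in WT and 22.0% in KD. Cox7a1 was 24.8% of subunit VIIa in WT and 26.2% in KD. In the pairs with a testis form the restricted gene was far lower. Cox6b2 had 22.4 FPKM in WT and 26.0 in KD (0.21), beside Cox6b1 with 2586 and 2821 FPKM (0.13). For Cox7b2, below 1 FPKM in both groups, the partner Cox7b had 521 and 537 FPKM (0.04). In all 6 pairs the ratio of the restricted form exceeded that of its partner. The excess was 1.35 on the log2 scale for Cox8b over Cox8a and 0.08 to 0.30 for the other 5, which include the barely detected Cox7b2. For Cox7b2 this value rests on the added 1 FPKM. Without it the fold was 1.69 for Cox7b2 and 1.03 for Cox7b, an excess above that range.

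**Figure D2:**
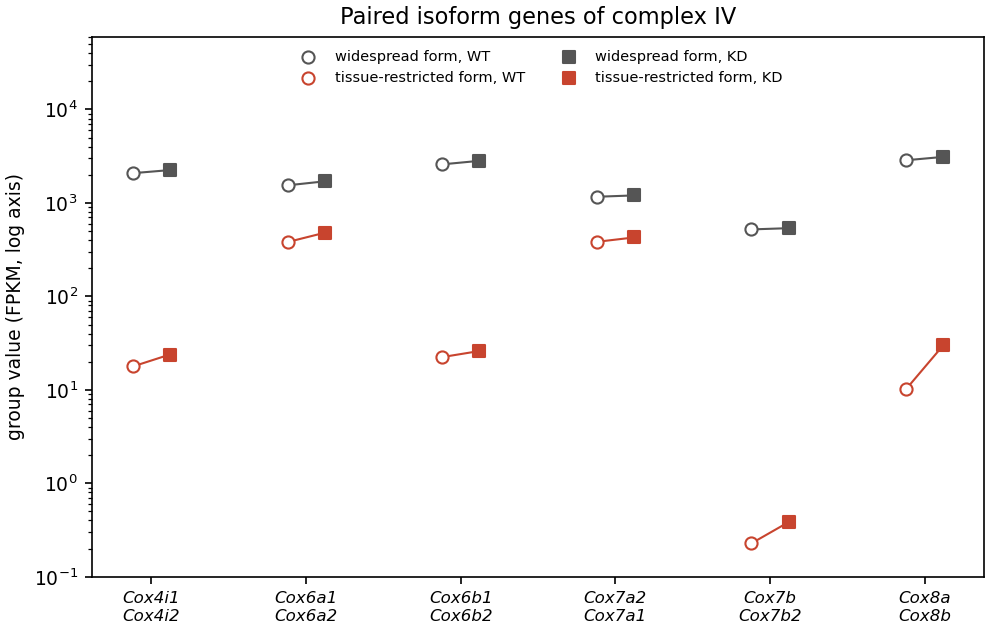
Group values in FPKM (log axis) of the 6 gene pairs of complex IV, with the widespread form in grey and the tissue-restricted form in red. Open circles are WT and filled squares are KD, 1 value per group. The line of Cox8b, from 10.2 to 30.0 FPKM, is the steepest of the pairs above 1 FPKM.

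The rest of complex IV moved little. All 16 of its members with at least 1 FPKM were above WT in KD, with a median log2 ratio of 0.13 and a lowest value of 0.04, for Cox7b. Of the subunits without a paired form, Cox5a had 1534 FPKM in WT and 1629 in KD, Cox5b 1456 and 1555 FPKM, Cox6c 1752 and 1928 FPKM, and Cox7c 2378 and 2588 FPKM. Their log2 ratios lay between 0.09 and 0.14. Cox7a2l had 315 FPKM in WT and 372 in KD (0.24). The median of complex IV was 0.04 with the trend in expression level subtracted and 0.03 with the trend in transcript length subtracted, and 13 of the 16 members were then above 0 for the latter.

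**Figure D3:**
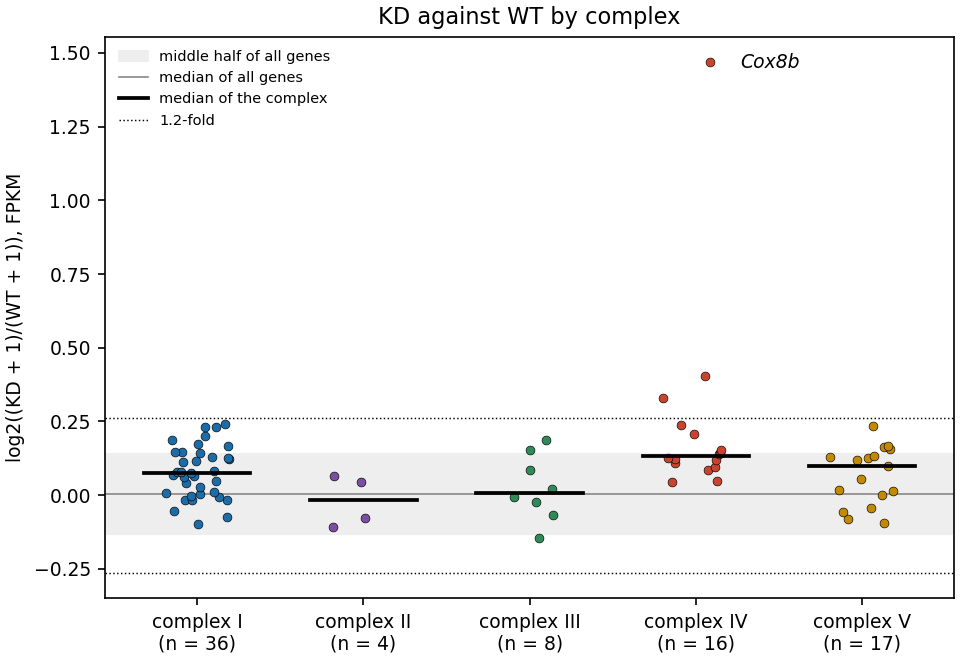
Log2((KD + 1)/(WT + 1)) of each member with at least 1 FPKM, by complex, with the median of the complex as a bar. The grey band runs between the quartiles of all genes, the grey line is their median and the dotted lines 1.2-fold in either direction. All 16 members of complex IV lie above 0, and 3 of them lie above the upper dotted line.

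Complex I takes electrons from NADH. All 36 of its members were measured, from Ndufa11 (73.9 FPKM in WT and 80.5 in KD) to Ndufa4 (1474 and 1553 FPKM). None was past 1.2-fold. KD was above WT in 28 and below it in 8, and the median log2 ratio was 0.08. With the trend in transcript length subtracted the median was 0.01, with 21 above and 15 below 0. The highest ratio was that of Ndufa3, an accessory subunit of the membrane arm, with 814 FPKM in WT and 962 in KD (0.24). The lowest was that of Ndufs1, the largest iron-sulphur subunit, with 119 FPKM in WT and 111 in KD (-0.10). The row of Ndufs1 overlaps that of Gm11602, and those of Ndufs7 and Atp5d lie in one long locus that the table gives to many genes, so that their values are less certain. In all, 12 members overlap another row.

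The 7 core subunits of complex I, which carry the flavin and the iron-sulphur clusters, had a median log2 ratio of 0.01, and the 29 accessory subunits one of 0.08. Among the core subunits Ndufv1, which binds NADH, had 230 FPKM in WT and 243 in KD, and Ndufv2 had 295 and 297 FPKM. Ndufs7 had 539 FPKM in WT and 533 in KD, and Ndufs8 had 220 and 231 FPKM. Ndufs3 departed the most of the 7, with 307 FPKM in WT and 353 in KD (0.20). By position in the complex, the 10 genes of the NADH-oxidising module had a median of 0.06, the 6 of the ubiquinone-reducing module one of 0.03, and the 19 of the membrane arm one of 0.12. The median transcript length was 1623 bases for the core subunits and 704 bases for the accessory ones.

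Complex II, succinate dehydrogenase, belongs to the citrate cycle as well as to the respiratory chain. Sdha, its flavoprotein, had 151 FPKM in WT and 140 in KD (log2 ratio -0.11). Sdhb, which carries the iron-sulphur clusters, had 747 FPKM in WT and 782 in KD (0.07). Of the membrane anchors, Sdhc had 320 and 330 FPKM (0.04) and Sdhd had 457 and 433 FPKM (-0.08). With 2 genes above and 2 below, the median of the complex was -0.02, and the ratio of the summed values had the opposite sign, 0.01.

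In complex III, 4 genes were above and 4 below WT, with a median log2 ratio of 0.01 that turned to -0.04 with the trend in level subtracted and to -0.06 with the trend in transcript length subtracted. Uqcrc1, which encodes a large core protein, had 484 FPKM in WT and 462 in KD (-0.07). Uqcrc2, which encodes the other, and whose row overlaps that of Pdzd9, had 337 FPKM in WT and 304 in KD (-0.15), the lowest ratio of all members and the only one past 1.1-fold lower. Uqcrfs1, the Rieske iron-sulphur protein, had 533 and 525 FPKM (-0.02). The highest ratios were those of the small subunits Uqcrq, with 1454 FPKM in WT and 1655 in KD (0.19), and Uqcr10, with 1826 and 2029 FPKM (0.15).

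Of the 17 members with an Atp5 name, counted as complex V although Atp5s and Atp5sl were placed in none of the modules of ATP synthase, 13 were above and 4 below WT, with a median log2 ratio of 0.10 and 0 past 1.2-fold. With the trend in level subtracted the median was 0.04, and with the trend in transcript length subtracted it was 0.01, with 10 above and 7 below 0. Of the catalytic head, Atp5a1 (alpha) was at 1215 FPKM in WT and 1149 in KD (-0.08) and Atp5b (beta), the most abundant gene of the complex in WT, at 2414 and 2318 FPKM (-0.06). The row of Atp5b overlaps that of Mir677. The small subunit epsilon, Atp5e, had 1358 FPKM in WT and 1597 in KD (0.23), the highest ratio of the complex. The lowest was that of Atp5f1, the b subunit of the peripheral stalk, with 724 and 679 FPKM (-0.09). The row of Atp5f1 overlaps that of Wdr77, which had 49.5 FPKM in WT and 44.0 in KD (-0.17). The ring of c subunits is encoded by Atp5g1, Atp5g2 and Atp5g3, which yield the same mature protein. They had 1248, 1141 and 1283 FPKM in WT and 1296, 1270 and 1283 FPKM in KD, so that no copy dominated in either group. The 3 small membrane subunits Atp5j2, Atp5k and Atp5l had log2 ratios between 0.12 and 0.17. Atp5s, with 11.0 FPKM in WT and 10.7 in KD, and Atp5sl, with 24.9 and 27.3 FPKM, were far below the rest. Atp5sl is now named Dmac2 and is known as an assembly factor of complex I.

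Over all members pooled, the ratio was lower for longer transcripts. Of the 35 members with a principal transcript under 700 bases, 33 were above WT, with a median log2 ratio of 0.12. From 700 bases to under 1200 bases 22 of 25 were above WT (median 0.11), and at 1200 bases or more 8 of 22 (median -0.03). Over the 82 members the Spearman correlation between length and ratio was -0.45 and the Pearson correlation with log10 length was -0.41. Without Cox8b they were -0.43 and -0.48. Within complexes the Spearman correlation was -0.14 for the 36 members of complex I, -0.30 for the 16 of complex IV and -0.64 for the 17 of complex V. These values are across genes that share the same 6 libraries, and they are a description only. Other abundant genes showed the same order. Of the other genes at 100 FPKM or more, 77.3% of 128 under 700 bases were above WT (median 0.10), 64.4% of 320 in the middle class (0.04) and 41.4% of 616 at 1200 bases or more (-0.02). The Spearman correlation over these 1064 genes was -0.32.

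**Figure D4:**
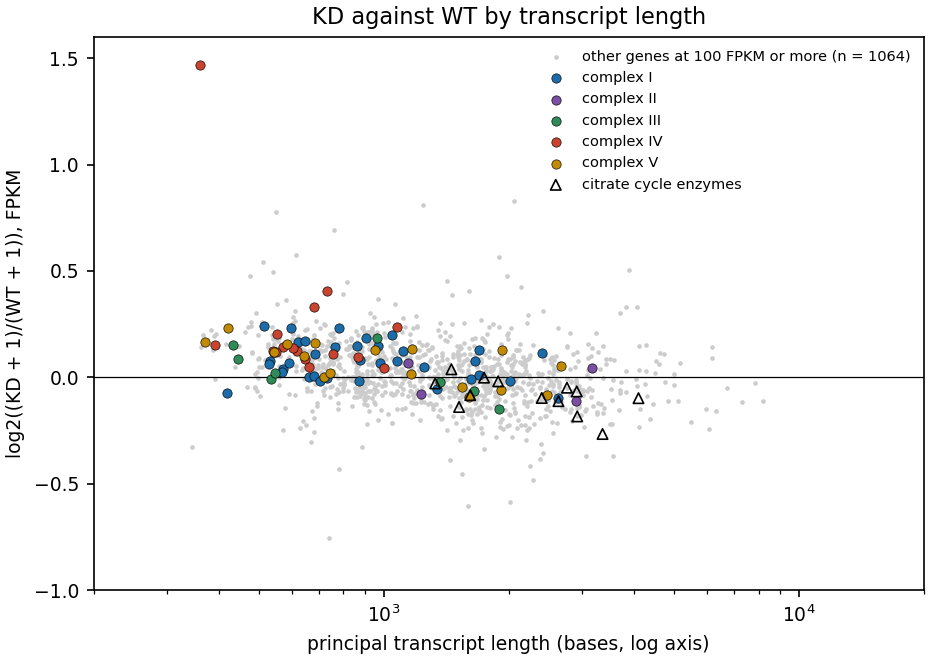
Log2((KD + 1)/(WT + 1)) against the length of the principal transcript in bases (log axis), for members coloured by complex, for the citrate cycle enzymes as open triangles and for other genes at 100 FPKM or more in grey. Of the members under 700 bases 33 of 35 lie above 0, and of those at 1200 bases or more 8 of 22. The point at the upper left is Cox8b, with 1.47.

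The other genes of the pathway, taken from lists chosen by function, had medians below 0. The log2 ratio of summed FPKM had the opposite sign for the assembly factors (0.03) and for the electron carriers and partners (0.04). Of 13 enzymes of the citrate cycle, 12 were below WT in KD, with a median log2 ratio of -0.08, and 1, Suclg2, was past 1.2-fold lower (68.4 FPKM in WT and 56.7 in KD, -0.27), a share of 7.69% beside 9.69% of all genes. Cs, citrate synthase, had 265 FPKM in WT and 234 in KD (-0.18), and Mdh2, malate dehydrogenase, was the only enzyme above WT, with 775 and 796 FPKM (0.04). The median transcript length of these enzymes was 2403 bases, and with the trend in length subtracted their median was -0.06, with 11 of 13 below 0. Among 13 electron carriers and membrane partners the median was -0.03 and 0 were past 1.2-fold. Cyc1, the cytochrome c1 of complex III, which the symbol rule leaves out, had 827 FPKM in WT and 775 in KD (-0.09). Cycs, cytochrome c, had 386 and 372 FPKM (-0.05), and Slc25a4, the heart form of the ATP and ADP carrier, had 2515 and 2570 FPKM (0.03). Usmg5, a small subunit of ATP synthase outside the symbol rule, had 3862 FPKM in WT and 4262 in KD (0.14).

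Assembly factors, which build the complexes without remaining in them, were measured for 42 of 42 genes. They had a median log2 ratio of -0.05, with 18 above and 24 below WT, and past 1.2-fold 1 was higher (2.38%, beside 12.2% of all genes) and 4 were lower (9.52%, beside 9.69%). Of 14 regulators of mitochondrial transcription, 13 had at least 1 FPKM, 10 of these were below WT, and 1 was past 1.2-fold lower (7.69%, beside 9.69% of all genes). That gene was Pprc1, a coactivator of the PGC-1 family (13.2 FPKM in WT and 10.4 in KD, -0.32). Tfam, which packages mitochondrial DNA and activates its transcription, had 21.5 FPKM in WT and 17.9 in KD (-0.26). Nrf1, a transcription factor of respiratory genes, had 17.0 and 18.5 FPKM (0.11), Gabpa, an ETS factor of the same kind, had 13.4 and 13.0 FPKM (-0.04), and Ppargc1a, the PGC-1alpha coactivator, had 7.28 and 7.79 FPKM (0.09). The subunits encoded by the mitochondrial genome were not analysed here.

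The promoters of the members were searched for the letters of transcription factors known from respiratory genes, and no motif stood in more than 21.3% of them. RefSeq windows of 300 bases, 250 before and 50 after the start, were at hand for 69 of the 84 members, in 75 windows. The letters searched, on both strands, were GCATGCGC for NRF1, CCGGAAG for ETS factors, AAGATGGCG for YY1, TCAAGGTCA for ESRRA and GGGGCGGGG for SP1. NRF1 letters stood in 13.3% of the members' windows, in 5.36% of the 11458 windows of protein-coding genes with at least 1 FPKM, and in 2.71% of all 32851 windows. For YY1 the shares were 12.0%, 3.14% and 1.40%, and for ETS factors 21.3%, 18.1% and 8.86%. ESRRA letters stood in 2 windows of the members (2.67%, against 0.236% and 0.423%), those of Atp5g3 and Sdhd. SP1 letters were in 16.0%, 21.7% and 11.4%. A match is a description of the letters and not a bound site.

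The 10 members with NRF1 letters had a median log2 ratio of 0.12 and the 58 without one of 0.08. For ETS letters the medians were 0.11 over 16 members and 0.08 over 52, and for YY1 letters 0.08 over 8 and 0.09 over 60. For SP1 letters the medians were 0.07 over 12 and 0.10 over 56, and the 2 members with ESRRA letters had a median of -0.04 against 0.10 over 66. The promoter of Cox6a2 and that of Cox4i2 were not used here, so among the 3 members past 1.2-fold only Cox8b has a window. It holds 0 of the 5 motifs over the full 300 bases. This is not particular to Cox8b. The windows of other members, not past 1.2-fold, hold no match either, among them Cox5a, Cox5b, Cox7a1, Cox7c, Ndufa4 and Sdha.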

How the data were processed

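Smart-Seq2 libraries from 10 ng of total RNA, amplified in 12 PCR cycles before and 9 after tagmentation, were sequenced single-end from 3 WT and 3 KD ventricle samples. The submitters' processing notes name TopHat, Bowtie2, Cuffdiff and mm10; the annotation is not given in the sources used here. The authors deposited 1 Cuffdiff table in which every gene has 1 pooled FPKM for WT and 1 for KD, the latter under the name KO. Its remaining columns hold the authors' own comparison (fold change, test statistic, p-value, q-value and call) and were not used. The table has 0 columns for single samples, so no test was made and no depth could be stated.

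Ratios were computed as log2((KD + 1)/(WT + 1)) over the 11606 genes that reached 1 FPKM in WT or KD, with folds of 1.1, 1.2 and 1.5. Members and lists were chosen with earlier results of these data known. Named with values were members past 1.2-fold, the extremes of level and ratio in each complex, the paired isoform genes and the core subunits, of which 1 is not reported here; Cox5a, Cox5b, Cox6c, Cox7c, Cox7a2l, Uqcr10, Atp5j2, Atp5k, Atp5l, Atp5sl and the genes of other lists were named after their values were seen, as was Ndufa4l2. Table positions are given with 1 added to the start, since 8156 rows then matched a GENCODE M21 transcript start (819 without). Transcript lengths are those of principal protein-coding GENCODE M21 transcripts, found for 84 of 84 members. Of 42 assembly factors 15 were matched by an older symbol. Trends were running medians over 201 genes. The functions were tested on simulated ratios. Scripts ran under Python 3.11.15. Tables were handled in pandas 2.3.3 and NumPy 2.4.6, correlations came from SciPy 1.17.1, and plots were drawn in Matplotlib 3.10.9.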

Additional observations from a re-analysis of the deposited data

How the results depend on the processing

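No paired analysis was possible because each group has 1 pooled FPKM, and for the same reason no replicate could be left out. With no spread between embryos, a median was counted as moved when it changed by 0.02 or more after rounding to 2 decimals. The number of members past 1.2-fold higher was 3, and 2 to 3 (Cox6a2 or Cox8b no longer counted) under other pseudocounts, filters and centring, without the 12 members whose rows overlap another, with the trend in transcript length subtracted and without Cox8b. It was 1 at a fold of 1.5 and 24 at a fold of 1.1, by construction, and 0 over genes at 100 FPKM or more with the length trend among them subtracted, where Cox8b and Cox4i2 no longer enter. The number past 1.2-fold lower was 0, and 1 at a fold of 1.1. Both alternatives on transcript length and the one without Cox8b were chosen after seeing the data. The cause of the other moves was not tested.

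The median log2 ratio of all members, 0.08, was 0.036 less the trend with level, 0.016 less the trend with length, 0.027 less the length trend at 100 FPKM or more, and 0.096 as a mean. For complex I, 0.08, the first 3 of these gave 0.058, 0.012 and 0.029. For complex II, -0.02, the ratio of summed FPKM gave 0.0085. Complex III, 0.01, turned to -0.036, -0.055 and -0.043, with 0.026 as a mean and 0.076 from summed FPKM. Complex IV, 0.13, gave 0.042, 0.034 and 0.033, and 0.24 as a mean. Complex V, 0.10, gave 0.043, 0.013 and 0.017, with 0.12 without overlapping rows, 0.067 as a mean and 0.079 from summed FPKM. Under no alternative did the median of all members or of complexes I, IV and V fall below 0. The unknown depth and the single value per group limit every ratio.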
